A study of Mus musculus with 130 samples.

Results

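The cytosolic ribosomal protein genes are described here across the sorted cell cycle gates and the unsorted cells of mouse embryos. Members were chosen by name: symbols that start with Rpl or Rps, then a number with an optional letter, or the names Rpsa and Rplp0 to Rplp2, with rows named as numbered copies (-ps) left out. This gave 88 of the 52550 rows of the count table. At a mean of at least 1 CPM (counts scaled to a common library total) over 25 libraries, 84 were kept, of which 46 are named for the large and 33 for the small subunit and 5 are paralogs whose names end in l or l1. The name rule misses some genes that also belong to the cytosolic ribosome, among them Fau, Rpl36al and Rack1, and these are given apart.

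All embryos were wild-type FVB/NJ animals that carry FUCCI, a pair of fluorescent proteins degraded at opposite ends of the cell cycle, red in G1 and green after the start of S phase. The labels name 4 gates, BR for G0, DR for G1, YE for G1-S and GR for S-G2-M, beside unsorted cells (US). Each gate has n = 5 libraries, from 5 preparations: a pair at E10.5 (WT1, WT2), a single one at E11.5 (WT3) and a pair at E13.5 (titled 5 and 8). No label tells if a preparation came from 1 embryo or several, and p-values measure the spread between these libraries. The E13.5 preparations also differ from the WT-titled preparations in the style of their titles and in the columns deposited per library (2, against 6 or 8). Day and any technical difference between these sets therefore cannot be told apart.

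Library totals ran from 14.7 M to 58.5 M counts, with a median of 22.9 M. Of 14 genes that check the gates, 13 were higher in S-G2-M than in G0, and Ccnb1 (cyclin B1) rose by 6.16 ± 0.34 on the log2 scale (standard error, SE; adjusted p = 8.73e-13 by edgeR's quasi-likelihood test, as for all adjusted p-values below). The gates also differ in cell types. The summed level of 16 neuronal markers was 6214 to 11722 CPM in G0, against 251 to 594 CPM in S-G2-M, and all 16 fell. The summed level of 14 erythroid markers was 16322 to 39042 CPM in unsorted cells, against 226 to 3706 CPM in the gates. The part that these cell types have in the results below was not tested, and in sums over many cells, fewer cells of a type and less RNA per cell cannot be told apart. Between the sets of preparations, 126 rows were at 0 in all 15 WT-titled libraries and above 0 in all 10 libraries of preparations 5 and 8, and 407 rows showed the reverse.

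Ribosomal proteins assemble with ribosomal RNA into the large (Rpl) and small (Rps) subunits, and growing cells make them in matched amounts. Their genes are classic targets of Myc. Their mRNAs typically begin with a C followed by an uninterrupted run of pyrimidines, the 5′ terminal oligopyrimidine (TOP) motif, through which mTOR signalling controls their translation. Rpl5 and Rpl11 have a further role: with 5S RNA they form a particle that binds Mdm2 and so links ribosome assembly to p53.

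RefSeq start sites on GRCm38.p6 were matched for 60 of the 84 kept members. Of the 57 that are not paralogs, 13 (22.8%) had a C at an annotated start followed by at least 4 further C or T, on the gene's strand. This held for 3.01% of all 27025 genes with a promoter. A gene with several starts counted if any of them had the run. None of 69 mitochondrial ribosomal protein genes and none of 57 ribosome biogenesis genes had one, while 2 of 28 translation factors (7.14%) did. The windows below show some of the 13 members with the run, and Rpl10a without it, so they are not typical of the 57. Rplp0, Rpsa, Rpl12 and Rpl34, for example, had no such run at an annotated start. Each window goes from 12 bases before the start to 18 from it on, 5′ to 3′ on the gene's strand. The start C and its pyrimidine run are in capitals.
Rps6, chr4:86857350-86857379, minus strand: cggaagtcgggcCTCTTTTTCgtgacgcct
Rps27, chr3:90213631-90213660, minus strand: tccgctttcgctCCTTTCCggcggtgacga
Rps10, chr17:27635227-27635256, minus strand: ccgcgcacgcccCTTCCTTTCCagcctccg
Rps15a, chr7:118116130-118116159, minus strand: tctttctgccatCTTCCCTCgccggtgagt
Rpl15, chr14:18270969-18270998, minus strand: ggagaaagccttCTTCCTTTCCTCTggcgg
Rpl35a, chr16:33056470-33056499, plus strand: gggcttgccttcCTCTTTCCgccatcttgg
Rpl38, chr11:114668568-114668597, plus strand: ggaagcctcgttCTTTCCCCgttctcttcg
Rplp2, chr7:141447639-141447668, plus strand: gtcagcgtcttcCTTTCgccgccggacgcc
Rpl10a, chr17:28328459-28328488, plus strand: gcgcccccccagCggccgcaaactgcagcg
The run is 13 bases long in Rpl15 and 5 in Rplp2. Rpl10a is shown for contrast: of its 2 annotated starts, that in the window is a C with no further pyrimidine, a few bases after a longer run. The other start of Rpl10a is not a C. Rpl35a has 3 annotated starts, and the window shows the start with the run. The match depends on the exact annotated base, so a missing run says only that these letters are not at that position. Over the promoter from 250 bases before to 50 after the start, on both strands, CCGGAAG was found in 42.1% of the 57 members, in 37.7% of the 69 mitochondrial ribosomal protein genes and in 9.93% of all promoters. CACGTG was found in 10.5% of the members and 8.09% of all promoters.

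The share of counts in the 88 members found by name, the 4 set aside included, was lowest in G0 and highest in unsorted cells in each of the 5 preparations. In G0 it was 0.86% in WT1, 1.02% in WT2, 1.18% in WT3, 0.648% in preparation 5 and 0.616% in preparation 8. In S-G2-M, in the same order, it was 1.63%, 1.94%, 1.92%, 1.09% and 1.11%. The S-G2-M share was 1.63 to 1.91 times that of G0, and within each preparation it was the higher, although the E13.5 values of S-G2-M overlapped the G0 values of the earlier days. The G1 share lay between them at 1.35%, 1.98%, 1.34%, 0.933% and 1.02%, except in WT2, where it was the highest of the 4 gates. The G1-S share was 1.74%, 1.42%, 2.18%, 1.08% and 1.14%, above G1 in 4 of 5 preparations. Unsorted cells had 1.95%, 2.28%, 3.37%, 1.5% and 1.49%, which was 1.17 to 1.76 times the S-G2-M share.

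**Figure D1:**
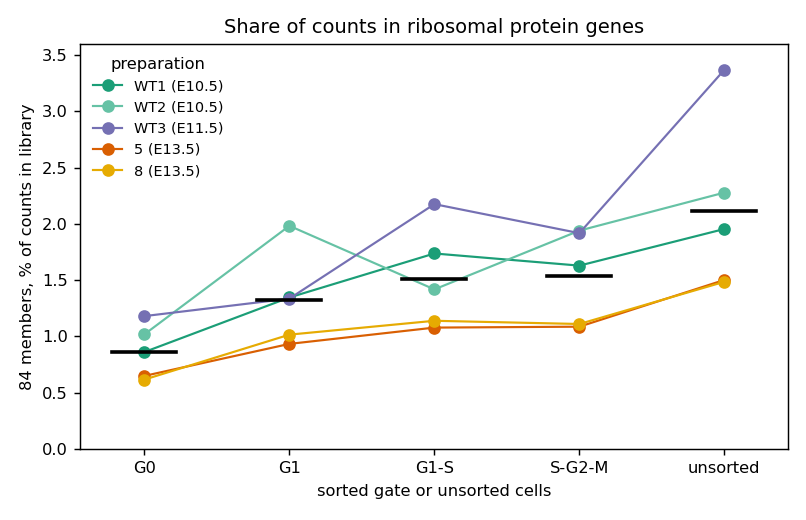
The share of each library's counts in the 88 members found by name (y axis, percent, where the label names the 84 kept) is plotted for the 4 gates and the unsorted cells (x axis). Points joined by a line are 1 preparation and black bars are the means of 5 libraries. Each line starts at its lowest point in G0 and ends at its highest in unsorted cells, and among the 4 gates the WT2 line is highest in G1.

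Between G0 and S-G2-M, the outer gates of the series, nearly the whole family was higher in S-G2-M. The edgeR quasi-likelihood test called 81 of 84 members higher and none lower, where 27.5% of the 23506 genes tested were called higher and 54.2% either way. The median log2 change of the members was 0.85, against -0.01 over all genes tested. All 84 were higher in S-G2-M in each of the 5 preparations, as were 29.9% of all genes, and for 41 the 5 S-G2-M libraries lay above all 5 G0 libraries, as for 14.9% of all genes. The large subunit (45 of 46 higher, median 0.80) and the small subunit (32 of 33 higher, median 0.86) moved by like amounts, paralogs apart. Members with the pyrimidine run at their start rose in 12 of 13 cases (median 0.81) and those matched without it in 46 of 47 (median 0.84). The members lie at higher levels than most genes: of 2407 other genes at 100 CPM or more, 48.4% were called higher, while all 34 members at that level were.

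The acidic stalk of the large subunit, which recruits elongation factors, is formed by Rplp0, Rplp1 and Rplp2. Rplp0 (chromosome 5 from 115559467 to 115563727, plus strand) stood at 476, 474, 660, 401 and 384 CPM in G0 of WT1, WT2, WT3, 5 and 8, and at 987, 1340, 1241, 779 and 817 CPM in S-G2-M. The groups did not overlap, and the E13.5 preparations were the lowest in both. The change was 1.11 ± 0.15 on the log2 scale (adjusted p = 7.66e-07). Rplp1 rose by 1.30 ± 0.20 (adjusted p = 8.19e-06) and Rplp2 by 1.13 ± 0.14 (adjusted p = 2.95e-07), so the 3 stalk genes were all above the family median.

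Rpl3, a protein of the peptidyl transferase centre, had the largest change of all members. Its G0 libraries stood close together at 24.4, 26.4, 24.98, 25.2 and 24.2 CPM, and its S-G2-M libraries at 76.2, 77.6, 101, 56.8 and 57.3 CPM. The groups did not overlap, and the change was 1.52 ± 0.11 (adjusted p = 9.48e-11). Rpl12, of the stalk base, stood at 16.7, 15.3, 16.1, 20.3 and 20.04 CPM in G0 and 53.3, 51.0, 61.8, 37.8 and 40.4 CPM in S-G2-M, a change of 1.43 ± 0.15 (adjusted p = 2.03e-08). In both genes the 2 E13.5 preparations had the lowest S-G2-M levels. Rpl5 rose by 0.69 ± 0.13 and Rpl11 by 0.74 ± 0.13, both under the family median, and neither gene's groups overlapped. Rpl22 was at 0.70 ± 0.12 and Rpl39 at 0.93 ± 0.16. Rpl10, which joins the large subunit last, was at 0.62 ± 0.13, and Rpl38, known for its role in patterning the embryo, at 0.51 ± 0.19 (adjusted p = 0.026).

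In the small subunit Rpsa, which also serves as a laminin receptor precursor, rose by 1.202 ± 0.154 (adjusted p = 4.97e-07). It stood at 320, 369, 554, 272 and 292 CPM in G0 and at 761, 1033, 1033, 616 and 656 CPM in S-G2-M, with no overlap. Rps12 rose by 1.35 ± 0.15 (adjusted p = 4.89e-08), Rps19, a gene mutated in Diamond-Blackfan anaemia, by 1.05 ± 0.12 and the X-linked Rps4x by 0.86 ± 0.17. Rps6, the substrate of S6 kinase, moved less, by 0.49 ± 0.13 (adjusted p = 0.00212). The row of Rps6 held a mean of 25.7 CPM, against 410 CPM in its 4 copies (-ps). Its levels were 19.2, 21.6, 24.8, 16.1 and 16.4 CPM in G0 and 30.3, 31.9, 41.1, 21.8 and 16.4 CPM in S-G2-M. These groups overlapped through preparations 5 and 8, in preparation 8 the gates nearly met, and Rps6 did not pass within preparations 5 and 8 alone.

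The 3 members not called were Rpl24 (0.63 ± 0.29, adjusted p = 0.068), Rps4l (0.36 ± 0.16, adjusted p = 0.0653) and Rps27 (0.34 ± 0.18, adjusted p = 0.105). Rpl24 had the lowest level of all kept members, 1.99 CPM. Rps27 stood at 6.76, 9.54, 7.46, 10.2 and 8.26 CPM in G0 and 10.3, 9.81, 10.1, 12.6 and 10.9 CPM in S-G2-M, with overlap. The lowest changes that passed were those of Rpl15 (0.37 ± 0.13), Rps6 and Rpl9 (both 0.49), Rpl23a (0.50) and Rpl27 (0.50). Rpl15 did not pass without WT1 (0.31) or WT2 (0.29), Rpl23a without WT2 (0.43), WT3 (0.39) or 5 (0.49), and Rpl38 without WT1 (0.45), WT2 (0.37) or WT3 (0.53).

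**Figure D2:**
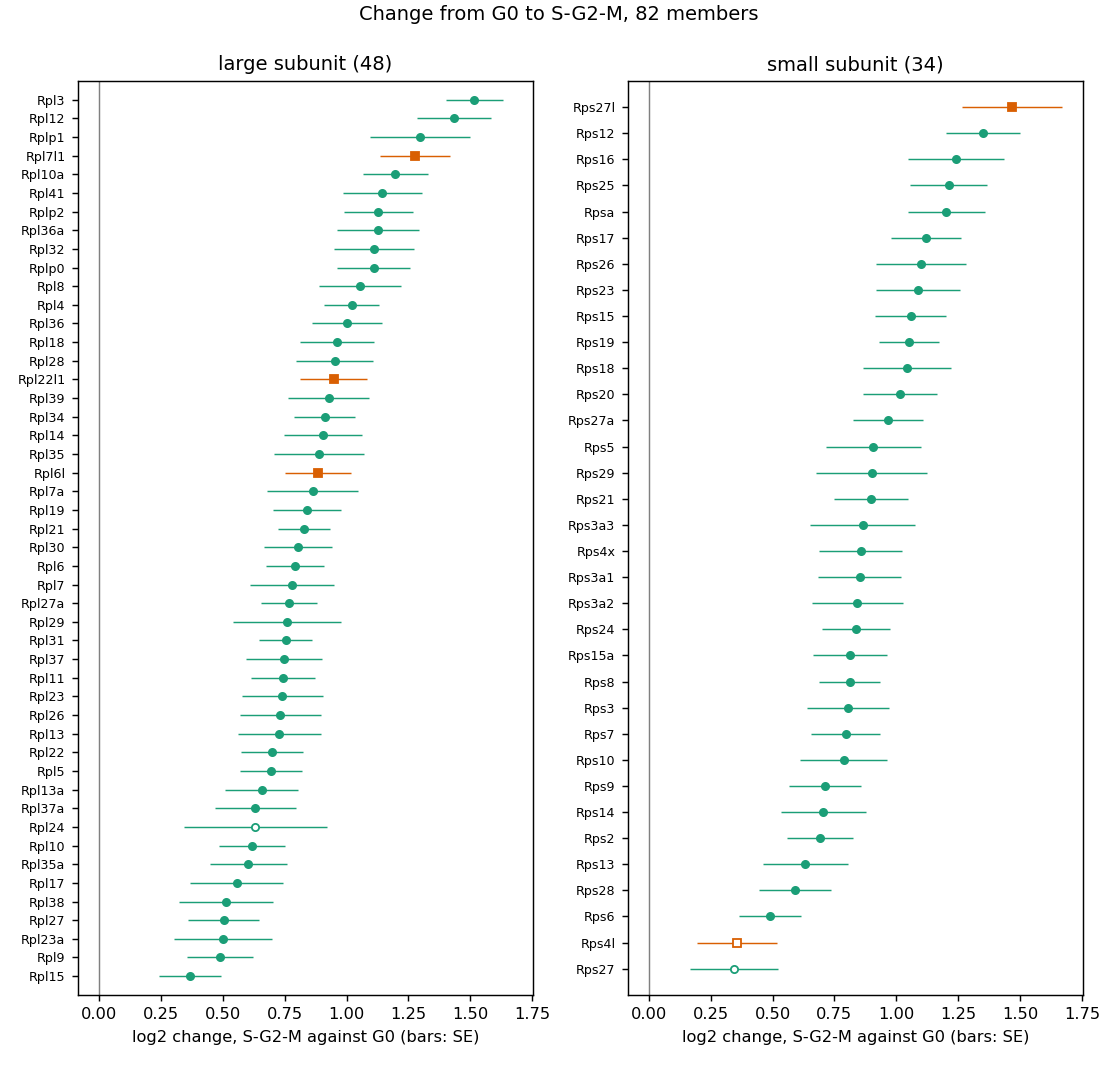
The log2 change from G0 to S-G2-M (x axis) of 82 of the 84 kept members is drawn with its standard error, by subunit. Circles are members and squares the 5 paralogs, and open symbols did not pass the test. All points lie to the right of 0, from Rpl15 and Rps27 at the bottom of their panels to Rpl3 and Rps27l at the top.

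The step from G0 to G1 had the largest median change of the 3 steps between neighbouring gates. Here 57 of 84 members were called higher and none lower, where 18.2% of all genes tested were called higher, and the median log2 change was 0.50 (0.01 over all genes). Small subunit genes rose in 27 of 33 cases and large subunit genes in 26 of 46, a difference that was not tested. The largest changes were those of Rpsa (0.87 ± 0.15), Rpl3 (0.82 ± 0.11), Rps16 (0.75 ± 0.19), Rps26 (0.70 ± 0.18) and Rpl12 (0.69 ± 0.15). In WT3 the step was small for many members: Rplp0 went from 660 to 667 CPM there, but from 476 to 768 CPM in WT1 and from 474 to 1074 CPM in WT2. Of the 84 members, 53 were higher in G1 in all 5 preparations, as were 21.2% of all genes, and for 12 the groups did not overlap, with all G1 libraries above all G0 libraries, as for 6.1% of all genes. The smallest changes that passed were those of Rps9 (0.44), Rps28 (0.41), Rpl31 (0.39), Rpl19 (0.37) and Rps6 (0.37). Rpl19 and Rps6 did not pass without WT1 (0.34 and 0.38), WT2 (0.21 and 0.40), 5 (0.42 and 0.34) or 8 (0.45 and 0.37). Rps9 and Rps28 did not pass without WT1 (0.41 and 0.41), 5 (0.47 and 0.39) or 8 (0.47 and 0.47), nor Rpl31 without 8 (0.40). Rpl5 (0.28 ± 0.13, adjusted p = 0.0838), Rpl11 (0.28 ± 0.13, adjusted p = 0.0897) and Rpl10 (0.29 ± 0.13, adjusted p = 0.0993) did not pass. Within the WT-titled preparations alone 27 members were called, and the count without each preparation in turn was 38 to 62.

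From G1 to G1-S the test called 10 of 84 higher and none lower, near the 11.7% of all genes called higher (7.18% were called lower), with a median log2 change of 0.29 (0.01 over all genes) and a positive change in 82 members. Those called were Rpl3 (0.67 ± 0.11), Rplp1 (0.60 ± 0.20), Rpl12 (0.51 ± 0.15), Rps12 (0.50 ± 0.15), Rplp2 (0.48 ± 0.14), Rps2 (0.47), Rps7 (0.45), Rpl34 (0.45), Rpl31 (0.37) and Rps19 (0.35). This count turned on single preparations. It was 48 without WT2, 1 without WT3, 4 without WT1, 3 without preparation 5 and 4 without preparation 8. Only Rpl3 and Rps2 had all G1-S libraries above all G1 libraries, as did 5.23% of all genes. In WT2 the high-level members went the other way, Rplp0 from 1074 to 814 CPM and Rpsa from 1005 to 716 CPM, while in WT3 Rplp0 went from 667 to 1448 CPM. With upper-quartile factors 2 members were called and with library totals alone 2.

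Between G1-S and S-G2-M the test called 2 members, Rpl7l1 (0.42 ± 0.14, adjusted p = 0.0373) and Rpl10a (0.40 ± 0.13, adjusted p = 0.0338), both higher, where 7.28% of all genes were called higher. DESeq2 called 2 members, and 4 had an unadjusted p under 0.05, as did 29.7% of all genes. Rpl10a, of the L1 stalk of the large subunit, stood at 40.6, 45.6, 46.3, 36.8 and 37.95 CPM in G1-S and 55.0, 58.7, 55.2, 50.2 and 55.3 CPM in S-G2-M. These groups did not overlap, which held for no other member and for 3.59% of all genes. No member was called without WT1, WT2, 5 or 8. In the G1-S gate the summed level of 10 hepatocyte markers was 32.6, 39.8 and 132 CPM in WT1, WT2 and WT3. It was 2463 and 1709 CPM in preparations 5 and 8, those of E13.5. The part of these cells in the steps was not tested.

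Unsorted cells had more ribosomal protein RNA than the mean of the 4 gates. The test called 68 of 84 members lower in the gates, where 28.7% of all genes were called lower, and 1 higher, where 19.4% were. The median log2 change was -0.78 (-0.02 over all genes), and 64 members were lower in all 5 preparations, as were 27.4% of all genes. Rplp0 stood at 1331, 1542, 2590, 1322 and 1360 CPM in unsorted cells, above all gates of the same preparation, and its change was -1.06 ± 0.11 (adjusted p = 6.44e-08). The strongest changes were those of Rps27l (-1.26 ± 0.14), Rpl39 (-1.17 ± 0.12), Rplp1 (-1.16 ± 0.15), Rpsa (-1.07 ± 0.11) and Rps16 (-1.06 ± 0.14). Unsorted cells of WT3 stood apart, with 2455 CPM of Rpsa against 956 to 1193 CPM in the other 4 unsorted libraries.

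The size of this difference went with the level of the member, as counted in its own row without its numbered copies (-ps). Spearman's rho between mean log2 CPM and the log2 change was -0.716 over the 84 members, which share the same libraries. Among the 28 members of highest level (171 to 949 CPM) all were lower in the gates, with a median of -0.90. Among the next 28 (33.003 to 166 CPM) it was 26 of 28, with a median of -0.82. Among the 28 of lowest level (1.99 to 32.7 CPM) it was 14 of 28, with a median of -0.27. Some of these have copies that held more counts than the member, as Rpl38 (19.1 times), Rpl23a (16.6) and Rps6 (16). Low level in a row and many counts in copies were not separated, and the trend with copies added was not tested. The median of all other genes was 0.23 under 10 CPM, -0.18 from 10 to 100 CPM and -0.09 at 100 CPM or more. The smallest decreases that passed were those of Rps27a (-0.29), Rpl31 (-0.31), Rpl10a (-0.32), Rpl12 (-0.33) and Rpl11 (-0.38). Without WT3 none of these 5 passed (-0.14, -0.11, -0.25, -0.19 and -0.17 in the same order). Rps27a, Rpl10a and Rpl12 did not pass without WT1 (-0.31, -0.22 and -0.29) or WT2 (-0.20, -0.26 and -0.24) either, nor Rps27a without 5 (-0.28).

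The 1 member called higher in the gates was Rpl35a (0.43 ± 0.13, adjusted p = 0.00677). Its unsorted level was 33.0, 30.4 and 34.6 CPM in WT1, WT2 and WT3 but 15.8 and 14.02 CPM in preparations 5 and 8, where its gates stood between 25.1 and 36.5 CPM. It did not pass without preparation 5 (0.35) or without preparation 8 (0.31). Rpl3 (-0.07 ± 0.09), Rpl5 (-0.10 ± 0.10), Rpl10 (-0.03 ± 0.10), Rps6 (-0.15 ± 0.10) and Rps27 (0.24 ± 0.14) did not pass either.

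**Figure D3:**
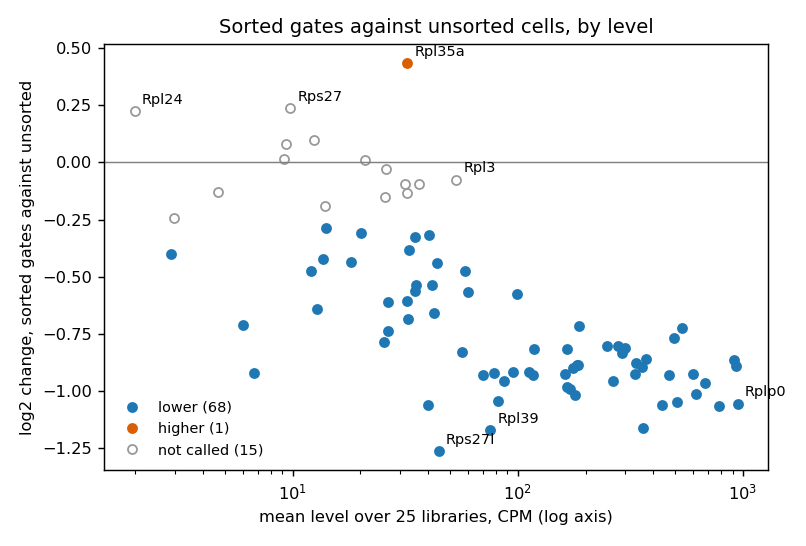
The log2 change between the mean of the 4 gates and unsorted cells (y axis) is plotted against the mean level of each of the 84 members in CPM (x axis, log scale). Levels are those of the member's own row, without its copies. Filled blue points were called lower in the gates, the orange point is Rpl35a and open points were not called. The points above 171 CPM lie between -0.72 and -1.16, and the 7 points above 0 have levels of at most 32.7 CPM.

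Reads of ribosomal protein genes can be shared with their many copies in the genome, and no source used here tells how such reads were counted. In the table there are 276 rows named as numbered copies (-ps), which took 0.155% to 1.12% of a library's counts. Of the 84 kept members 60 have such a row, and for 20 the copies together held more counts than the member itself. The ratio was 19.1 for Rpl38, 16.6 for Rpl23a, 16 for Rps6, 15.3 for Rps2 and 10.1 for Rpl3. Per kilobase of exon, member levels ran from 1.93 CPM for Rpl24 to 742 CPM for Rplp1, and the level of a member with abundant copies is uncertain. Of the members, 34 had at least 80% of their 50-base exon words in no other gene. Between G0 and S-G2-M, 33 of these rose, and the median of the subset was 0.87. The subset is not free of members with abundant copies: it includes Rps13, Rpl34 and Rpl9, with ratios of 4.16, 3.76 and 3.12.

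With the counts of the copies added to each member (a setting added once results were known), 78 of 84 rose from G0 to S-G2-M (27.7% of all genes were called higher) and the median was 0.86. Rpl3 then changed by 1.05. In the comparison with unsorted cells 77 members were lower in the gates (28.7% of all genes) and none higher (19.3% of all genes), with a median of -0.86. Rpl35a stood at -0.04 and Rpl10a moved from -0.32 to -0.85. From G1 to G1-S 5 members were then higher (11.8% of all genes were called higher and 7.18% lower) and from G1-S to S-G2-M 1 was (7.36% and 10.2%). In the day differences no member was called for G1 against G0 by edgeR (1.06% of all genes higher, 2.49% lower) and 2 were lower for S-G2-M against G0 (4.28% and 4.45%).

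The comparison of E13.5 with E10.5 in unsorted cells rests on 2 libraries a day. The test called 36 of 84 lower, where 23.7% of all genes were called lower, and 4 higher, where 23.2% were. The median log2 change was -0.43, against -0.06 over all genes, and 10 members had a positive change. The strongest decreases were those of Rps10 (-1.30 ± 0.17), Rpl7a (-1.22 ± 0.17), Rpl36a (-1.17 ± 0.18), Rpl35a (-1.07 ± 0.14) and Rplp1 (-1.05 ± 0.21). Rps10 stood at 69.6 and 52.0 CPM in WT1 and WT2 and at 25.8 and 23.1 CPM in preparations 5 and 8, without overlap. WT3, of the day between, was higher than both at 125 CPM. The count was 73 without WT1, 75 without WT2, 11 without preparation 5 and 8 without preparation 8. Rplp1 did not pass without preparation 8 (-0.96). The 6 copies of Rpl35a took 13.9 to 181 CPM together in the WT-titled libraries and 0.362 to 1.05 CPM in preparations 5 and 8, so that with them the change of Rpl35a was -2.12.

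Among the members that rose were Rpl34 (1.99 ± 0.13, adjusted p = 0.000119) and Rps28 (0.67 ± 0.12, adjusted p = 0.00441). Rpl34 (chromosome 3 from 130726831 to 130730398, minus strand) stood at 20.1, 21.6 and 24.7 CPM in unsorted cells of WT1, WT2 and WT3 and at 84.4 and 79.4 CPM in preparations 5 and 8. The same division held in every gate: over all 15 WT-titled libraries it ran from 8.71 to 24.7 CPM, and over the 10 libraries of preparations 5 and 8 from 33.2 to 84.4 CPM. Its 2 copies did not show this, with 153, 213, 327, 167 and 184 CPM in unsorted cells of WT1, WT2, WT3, 5 and 8. With the copies added, the change of Rpl34 was 0.35 (adjusted p = 0.152). Rps28 stood at 34.8, 33.7 and 61.3 CPM in unsorted cells of WT1, WT2 and WT3 and at 53.8 and 54.2 CPM in preparations 5 and 8, so that WT3 was the highest. It did not pass without preparation 5 (0.61) or 8 (0.67).

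**Figure D4:**
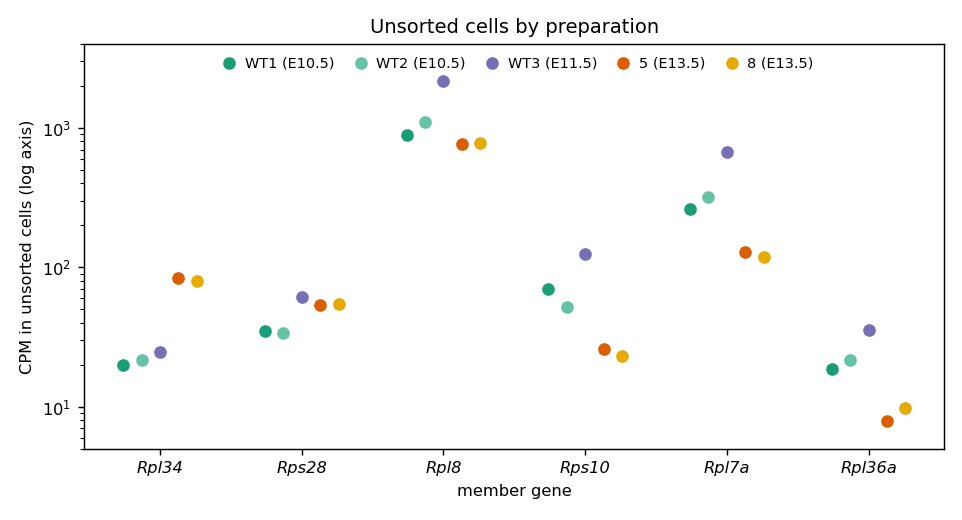
Levels in unsorted cells (y axis, CPM, log scale) of 6 members (x axis) are shown with 1 point for each preparation. The E13.5 points (orange and yellow) lie above the E10.5 points (green) for Rpl34 and Rps28 and below them for the other 4 genes, of which Rpl8 is drawn as a high-level member. The E11.5 point (purple) is the highest for Rps28, Rpl8, Rps10, Rpl7a and Rpl36a.

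The change between gates was tested for a difference between days, with 2 libraries a day in each gate. For the difference in the G1 to G0 change between E13.5 and E10.5 the edgeR test called no member, where 1.04% of all genes were called higher, 2.47% lower and 3.51% either way, 11 members had an unadjusted p under 0.05 (16.1% of all genes did) and DESeq2 called 1. With the preparation as a block 1 was called, without WT1 34 (all with a smaller rise at E13.5) and without WT2 1 (with a larger one). The median difference was -0.29, against -0.10 over all genes, and it was positive for 12 members. For S-G2-M against G0 the test called 3 of 84 members, all with a smaller rise at E13.5, where 4.42% of all genes were called lower, 4.24% higher and 8.66% either way. They were Rpl7l1 (-0.81 ± 0.21, adjusted p = 0.0209), Rpl12 (-0.75 ± 0.20, adjusted p = 0.0245) and Rpl10a (-0.57 ± 0.17, adjusted p = 0.0478). The median difference was -0.25, against -0.06 over all genes, and it was positive for 7 members. With the preparation as a block 6 members were called. Without WT1 it was 17, and without preparation 5 or 8 it was none.

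Members kept their proportions to one another to different degrees. Each member's log2 level was set against that of the median member of the same library, and its SD over the 25 libraries ran from 0.13 to 1.15, with a median of 0.29. The steadiest were Rps15a (0.13), Rps9 (0.13), Rpl13 (0.14), Rps19 (0.15) and Rpl27a (0.15). Among the most variable were Rpl34 (1.15), Rpl28 (0.70) and Rpl22l1 (0.66). For 12 members the range over the WT-titled libraries did not overlap that over preparations 5 and 8, 7 of them higher in the latter and 5 lower. On the same scale this held for 6.89% of all genes tested as higher and 3.74% as lower. Rps3 was one of these, with a median 3.97 above the median member in the WT-titled libraries and 3.37 in the others, on the log2 scale.

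Paralogs replace a family member in some tissues. Of the 9 by name, Rpl22l1, Rpl7l1 and Rps27l are expressed protein-coding genes. Rpl6l is annotated as a processed pseudogene and Rps4l as a transcribed one (GENCODE M21), as are Rps12l1 and, among the members not set apart, Rps3a2 and Rps3a3. Rps27l, a p53 target, had the second largest change of all members from G0 to S-G2-M (1.47 ± 0.20, adjusted p = 1.34e-06). It stood at 18.7, 21.2, 32.2, 14.2 and 10.3 CPM in G0 and 56.8, 72.1, 70.8, 32.2 and 32.2 CPM in S-G2-M. The groups did not overlap, though the WT3 library of G0 nearly met the E13.5 libraries of S-G2-M. Its parent Rps27 did not pass in that comparison. Per kilobase of annotated exon Rps27l lay at 56.4 CPM and Rps27 at 9.32 CPM. Of their 50-base exon words, 88.8% and 75.0% in this order lay in no other gene. How shared reads were counted is not known, so the levels of these genes cannot be ranked.

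Rpl7l1, a protein of ribosome assembly, rose by 1.28 ± 0.14 (adjusted p = 5.37e-08), from 57.4, 56.6, 72.3, 64.2 and 59.9 CPM in G0 to 168, 193, 186, 111 and 114 CPM in S-G2-M. The groups did not overlap, and the WT-titled preparations were the higher in S-G2-M. Rpl22l1, which binds RNA as Rpl22 does, rose by 0.95 ± 0.14 (adjusted p = 2.52e-06), from 6.42, 8.01, 5.50, 13.8 and 9.81 CPM to 14.3, 14.02, 14.04, 19.8 and 19.6 CPM. Here the E13.5 preparations were the highest, in contrast to Rpl22 at 137 and 131 CPM in their G0 libraries and 193 to 250 CPM in those of the WT-titled preparations. Between days in unsorted cells neither Rpl22l1 (0.37 ± 0.19, adjusted p = 0.139) nor Rpl22 (-0.48 ± 0.19, adjusted p = 0.0745) passed. Rpl6l rose by 0.88 ± 0.13.

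**Figure D5:**
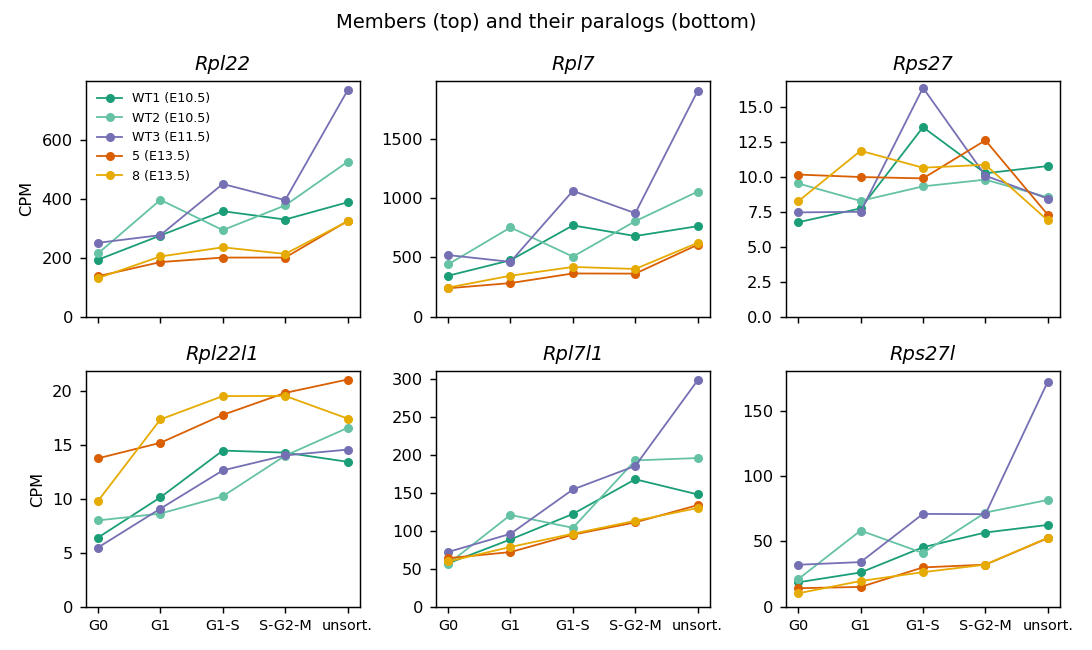
Levels in CPM (y axes, each from 0) of 3 members and, under each, its paralog, over the 4 gates and unsorted cells (x axis), with a line for each preparation. Rpl7l1 and Rps27l are higher in S-G2-M than in G0 in all 5 lines, Rps27 is so too but stays under 17 CPM, and Rpl22l1 is highest in preparations 5 and 8.

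The 4 members set aside were all paralogs. Rpl3l, known from heart and skeletal muscle, had 285 counts over 25 libraries, 0 to 23 in each. Rpl39l, known from testis, had 121 counts in 19 libraries, and Rpl10l, also of testis, 16 counts in 7 libraries. Rps12l1 had 0 counts in the 15 WT-titled libraries, which allows up to 0.0063 CPM over them together by counting error alone. It had 42 counts in the 10 libraries of preparations 5 and 8, with at least 1 in each. All its 50-base exon words are shared with other genes (25 of them), and 100% of its exon bases lie under exons on the other strand. Its counts may depend on the unknown treatment of strand and shared reads, so they do not set its level.

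Of the genes outside the name rule, Rack1, a scaffold of the small subunit, rose from G0 to S-G2-M by 0.88 ± 0.17 (adjusted p = 8.52e-05), and Fau, which codes for a fusion that releases a small subunit protein, by 0.63 ± 0.15 (adjusted p = 0.00127). Rpl36al was at 0.51 ± 0.32 (adjusted p = 0.186).

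Other genes of the pathway were set beside the members in the same comparison, where 27.5% of all genes were called higher and 26.6% lower. Of 65 ribosome biogenesis genes 63 rose and 1 fell, with a median of 1.10. Lyar (2.04 ± 0.15) and Dkc1, the pseudouridine synthase (1.98 ± 0.14), were the highest, and Rrn3, an initiation factor of RNA polymerase I, fell by 0.40 ± 0.10. Of 78 mitochondrial ribosomal protein genes tested 68 rose and none fell (median 0.68), and of 36 translation factors 31 rose (median 0.76), with Eif5a at 1.37 ± 0.14. Among 22 genes of Myc, mTOR and 5S particle sensing, 9 rose and 7 fell (median 0.06). Eif4ebp1, a repressor of translation under mTOR, was at 1.87 ± 0.18. Genes of the Mxd family of Myc antagonists went both ways, with Mxd3 at 3.06 ± 0.44 and Mxd4 and Mxd1 at -1.62 ± 0.12 and -1.61 ± 0.20. Myc (0.97 ± 0.15), Mycn (1.13 ± 0.14) and Trp53, which codes for p53 (1.35 ± 0.11), rose, Cdkn1a, a p53 target and cell cycle inhibitor, fell by 1.53 ± 0.30, and Mdm2 was at -0.13 ± 0.07 (adjusted p = 0.0979). From G1-S to S-G2-M, where 2 members and 7.28% of all genes were called higher, 25 of the 65 biogenesis genes rose. Against unsorted cells the gates were lower for 64 biogenesis genes, 75 mitochondrial ribosomal protein genes and 32 translation factors, and for 28.7% of all genes.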

How the data were processed

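RNA of sorted and unsorted embryo cells was sequenced after depletion of ribosomal RNA. The authors deposited counts of reads for each gene, made with STAR 2.5.3 and HTSeq 0.8.0 on mm10 per the submitters' processing notes. No source used here gives the annotation, the strand setting or the treatment of shared reads. The 130 deposited columns were parts of 25 libraries (dispersion between parts 1.09 to 1.23, between preparations 5.9 to 117.5) and were summed. Members and gene lists were chosen with earlier results of these data known. Members to be named were the paralogs, 15 set by name, the 5 highest and 5 lowest changes past each test, and the 5 steadiest and 5 most variable, of which some are not reported here.

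Genes passing filterByExpr (minimum count 10, total 15) were scaled by TMM and tested with edgeR 4.0.16 (R 4.3.3) by the quasi-likelihood F test, with Benjamini-Hochberg adjustment over all genes and a threshold of 0.05. Gate comparisons and sorted against unsorted came from 1 fit of fraction and day to 25 libraries. Days were compared in a fit to the 5 unsorted libraries, and day differences in a fit with a mean for each day and fraction. The SE of a change is its size over the root of its F statistic. CPM used TMM-scaled totals. Titles pair the libraries of a preparation, which deviated together (correlations 0.119 to 0.743 between WT1 and WT2, 0.317 to 0.663 between 5 and 8, over 11136 genes). The tests were tried on simulated counts. Alternatives were other scalings, no filter, DESeq2 1.42.0, leaving out preparations, a preparation block and subsets. Start sites and promoters came from RefSeq, and locations from GENCODE M21 (GRCm38).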

Additional observations from a re-analysis of the deposited data

Results flagged for a closer look

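Among 105 sets of 5 libraries (the family's share and 20 members in each fraction), 6 had a library that stood apart from the other 4 by Dixon's test, which chance alone gives in about 1 of 20 sets. In unsorted cells it was WT3 for Rpsa (2455 CPM), Rplp0 (2590 CPM), Rpl39 (216 CPM) and Rps27l (172 CPM), each time the highest. In G1-S it was WT3 for Rpl6l, the highest at 93.1 CPM, and preparation 5 for Rpl38, the lowest at 3.93 CPM. The change from G0 to S-G2-M differed between E13.5 and E10.5 by the test of the difference for Rpl10a (-0.57), Rpl12 (-0.75) and Rpl7l1 (-0.81), each with the smaller rise at E13.5. These are 3.57% of the 84 members, not above the 4.42% of all genes called lower (8.66% either way).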

How the results depend on the processing

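With the preparation as a replicate block, the pairing gave 57, 10, 2 and 81 members called for G1 against G0, G1-S against G1, S-G2-M against G1-S and S-G2-M against G0, 68 for sorted against unsorted, 1 for the day difference of G1 against G0 and 6 for that of S-G2-M against G0. From G1 to G1-S, 6 members were called with RLE factors, 2 with upper-quartile factors, 2 with library totals, 4 without Gm26917 and Gm42418, 41 within preparations 5 and 8 and 5 with copies added, and 1 (without WT3) to 48 (without WT2) when a preparation was left out; the median was 0.15 with library totals and 0.13 to 0.45 when a preparation was left out. From G1-S to S-G2-M, 1 was called with upper-quartile factors, 1 with library totals, 1 with copies added, 0 within the WT-titled preparations, and 0 to 3 when a preparation was left out. For G1 against G0 it was 27 within the WT-titled preparations. For E13.5 against E10.5 it was 68 with upper-quartile factors, 66 with the day term of all 25 libraries, and 8 to 75 when a preparation was left out. The day difference of G1 against G0 gave 1 by DESeq2 and 0 to 34 when a preparation was left out, and that of S-G2-M against G0 gave 1 with upper-quartile factors and 0 to 17. Of 1374 alternative values of named members 1147 kept direction and call, 222 lost the call and 5 reversed: Rpl31 from G1 to G1-S (-0.11) and Rpl35a in sorted against unsorted (-0.0364) with copies added, and within preparations 5 and 8 Rpl15 from G0 to S-G2-M (-0.0067), Rpl11 (0.0378) and Rpl12 (0.0519) in sorted against unsorted. The cause of these shifts was not tested. Counts of members under other settings, here and above, mostly stand without the share of all genes called in that setting. A moved count can therefore not be told apart from a move of the test over all genes. Upper-quartile factors moved the median of all genes to 0.17 for sorted against unsorted and to -0.26 for E13.5 against E10.5, while the members' medians kept their sign. Rows of few counts and rows with many copies limit the low-level members.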
